A study of Sus scrofa with 13 samples.

Results

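The ligands, receptors, signal proteins and binding proteins of the transforming growth factor beta (TGF-beta), bone morphogenetic protein (BMP) and activin families were examined in skeletal muscle of pigs lacking functional dystrophin. Genes were taken by symbol: all that begin with TGFB, BMP and a digit, BMPR, INHB, INHA, ACVR, SMAD, GDF, LTBP or FST, leaving out MSTN. Of the 10283 genes named on the array, 34 met this rule: 12 ligands, 11 receptors, 5 signal proteins, 4 binding proteins and 2 genes, BMP1 and TGFBI, that carry a family symbol but encode a protease and a matrix protein. Each gene stands for 1 probe set, the set of array probes with the highest mean over all arrays. TGFB1, SMAD2, SMAD3 and INHBA had no probe set with a single symbol and were not analysed here.

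RNA of the biceps femoris, a thigh muscle, came from 13 German Landrace pigs, 1 array per animal. The groups were DMD knockout (DMD KO) piglets at 2 days (n = 4), wild-type (WT) piglets at 2 days (n = 3), DMD KO pigs at 3 months (n = 3) and WT pigs at 3 months (n = 3). In the knockout, exon 52 of DMD, the dystrophin gene, was deleted with a modified bacterial artificial chromosome in primary kidney cells, from which the animals were made by nuclear transfer. DMD KO muscle was taken right after the animal's death, whereas WT animals were euthanised at matching ages. Genotype, the manner of death and any effect of cloning therefore cannot be told apart in a comparison of DMD KO with WT. The series describes the animals as biological replicates, so p-values measure the spread between these animals, and precision is limited by how few arrays there are.

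Ligands of these families bind paired type I and type II receptor kinases at the cell surface. The receptors phosphorylate receptor SMADs, which join SMAD4 and enter the nucleus, while SMAD6 and SMAD7 inhibit the signal. Some latent TGF-beta binding proteins hold TGF-beta in the matrix, and follistatin captures activins and myostatin. In muscle the TGF-beta branch is known for its part in fibrosis and the activin branch for restraining fibre growth.

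Values are levels on a log2 scale, on which a difference of 1 is a doubling. That the base is 2 was inferred from their range. Levels of different probe sets were not compared with each other. A gene was called when its limma adjusted p (Benjamini-Hochberg over all 21893 probe sets) was under 0.05. Array medians ran from 7.32 to 7.38 and the 25th percentiles from 6.53 to 6.61. How far signals stood above background was not analysed here. No fold is given where the lower group's mean lay below the 25th percentiles. WT replicate 3 at 2 days stood apart: its mean correlation with the other arrays was 0.918, against 0.943 to 0.964 for the remaining arrays. It gave the highest or lowest value of 15 of the 34 family genes, while 43.4% of all probe sets had their extreme there. The 2-day genotype differences printed for family genes are therefore given with and without it, and the pathway genes by how many were called without it. DMD KO replicate 3 at 3 months gave the lowest value of 11 family genes, and of 19% of all probe sets, with 30.6% having their highest or lowest value there. The 2 DMD probe sets differed by 0.11 (adjusted p = 0.705) and 0.23 (0.423) at 2 days and by -0.22 (0.528) and 0.00 (0.996) at 3 months, and as their place relative to that exon is unknown here, they do not check the labels.

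Few of the family genes differed between genotypes. At 2 days 2 of the 34 were called, both lower in DMD KO, which is 5.88% of them against 9.93% of all probe sets (2.85% called lower and 7.09% called higher). At 3 months 4 were called, 3 higher and 1 lower, or 11.8% against 5.98% of all probe sets (4.62% higher and 1.36% lower). The 3 that rose were all receptors: TGFBR1, TGFBR3 and ACVR1. With age, 1 gene fell in WT (2.94% against a background of 2.89%, made up of 1.71% higher and 1.18% lower) and 2 rose in DMD KO (5.88% against 8.04%, with 4.47% higher and 3.57% lower). The genotype difference itself differed between ages for 2 genes, 1 upward and 1 downward (5.88% against 5.05%, with 3.06% upward and 1.99% downward). Across these 5 comparisons 7 genes were called at least once and 27 never. The median absolute genotype difference of the family was 0.19 at 2 days and 0.17 at 3 months, beside 0.18 and 0.16 over all probe sets. The 2-day count fell to 0 without DMD KO replicate 1, 2 or 4 and to 1 without DMD KO replicate 3 or WT replicate 1 or 3, and was 3 without WT replicate 2. Without WT replicate 3 the called gene was BMP5 (-0.96, adjusted p = 0.0483), while both ACVR1C (0.0827) and TGFBI (0.126) lost their call. At 3 months the count was 2 without DMD KO replicate 1 or 2 or WT replicate 2, 1 without WT replicate 3 and 0 without DMD KO replicate 3. Shares of all probe sets called are not printed beside these left-out counts. A change in the family therefore cannot be told here from a change over the whole array.

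**Figure D1:**
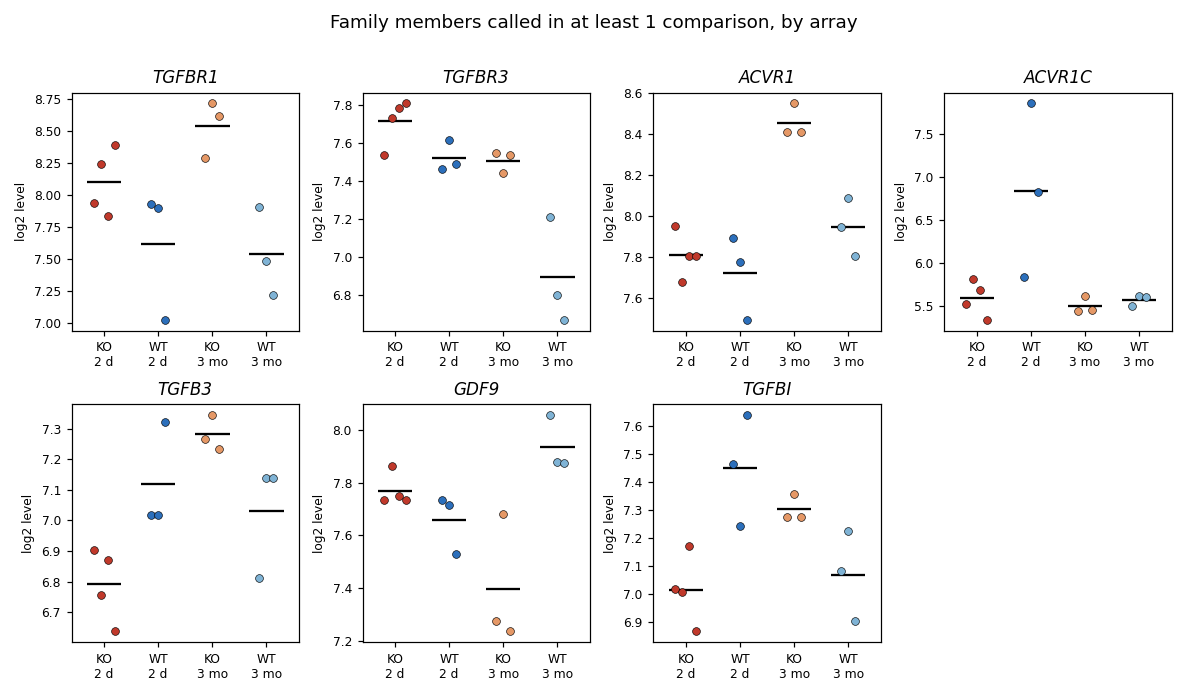
Levels (log2) of the 7 family genes called in at least 1 comparison, with a point for each array and a line at each group mean, in the 4 groups. TGFBR1, TGFBR3 and ACVR1 lie higher in all 3 DMD KO arrays at 3 months than in the 3 WT arrays of that age, and ACVR1C is spread from 5.84 to 7.86 in WT at 2 days.

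Among the ligands, GDF9, a growth factor best known from oocytes, was the one called between genotypes. At 3 months it read 7.27, 7.68 and 7.24 in DMD KO and 8.06, 7.88 and 7.88 in WT. The groups did not overlap, and DMD KO replicate 2 lay nearest to WT. GDF9 fell by 0.54 ± 0.12 (SE; 1.45-fold lower; adjusted p = 0.0184), and the call was lost without DMD KO replicate 1 (0.0702), DMD KO replicate 3 (0.0911) or WT replicate 1 (0.0548), and in a fit of these 6 arrays alone (0.0895). At 2 days GDF9 read 7.73, 7.86, 7.75 and 7.74 in DMD KO and 7.73, 7.71 and 7.53 in WT, a difference of 0.11 (adjusted p = 0.544), or 0.05 (0.902) without WT replicate 3. The genotype difference at 3 months was lower than that at 2 days by -0.65 ± 0.16 (adjusted p = 0.0404), a call that was kept only without DMD KO replicate 2 at 3 months and lost without any 1 of the other 12 arrays (0.0539 to 0.0989) or with array weights (0.082). It was also lost with the replicate number as a block (0.0895).

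TGFB3, a TGF-beta ligand, rose with age in DMD KO. It read 6.90, 6.75, 6.87 and 6.64 in DMD KO at 2 days and 7.27, 7.34 and 7.23 at 3 months. All 3 older animals lay above all 4 younger ones. In this comparison 4 family genes were higher and 2 lower without overlap, where 20.8% of all probe sets did not overlap. The rise was 0.49 ± 0.11 (1.40-fold; adjusted p = 0.0165), and the call was lost without DMD KO replicate 4 at 2 days (0.0534), DMD KO replicate 1 at 3 months (0.0514) or DMD KO replicate 2 at 3 months (0.0769). That call was also lost with the replicate number as a block (0.083). WT read 7.02, 7.02 and 7.32 at 2 days and 6.81, 7.14 and 7.14 at 3 months. DMD KO thus lay below every WT array at 2 days and above every one at 3 months, but neither difference was called (-0.33, adjusted p = 0.0857, and 0.25, adjusted p = 0.283), nor was the difference between them (0.58, adjusted p = 0.0666). Without WT replicate 3 the 2-day difference was -0.23 (0.333). Array weights gave a call at 2 days (-0.24, 0.0361), and the leading axis of spread within groups as a covariate gave one at 3 months (0.38, 0.0193). The estimation of the array weights stopped before converging, a limit on every array-weight result given here.

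The other 10 ligands were not called in any comparison with all arrays. TGFB2, a further TGF-beta ligand, ran from 6.61 to 6.95 in DMD KO and from 6.59 to 6.83 in WT at 2 days, with differences of 0.11 at 2 days (adjusted p = 0.598; 0.04, 0.93, without WT replicate 3) and 0.21 at 3 months (0.438). BMP5 and BMP6, both BMP ligands, were named after their values were seen, because the array that stands apart moved them. BMP5 read 7.97, 7.87, 8.20 and 8.15 in DMD KO and 9.35, 8.66 and 7.56 in WT at 2 days. The lowest and the highest values were both WT, and the genotype difference was -0.47 (adjusted p = 0.371) with WT replicate 3 and -0.96 (0.0483) without it. BMP6 read 6.45, 5.92, 6.51 and 6.40 in DMD KO and 6.85, 6.46 and 7.59 in WT, and its difference was -0.65 (adjusted p = 0.0848) with WT replicate 3 and -0.34 (0.347) without it. BMP5 had the widest pooled SD of the family, 0.51, where the median was 0.17 for the family and 0.17 over all probe sets.

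Receptors held most of the 3-month calls. TGFBR1, the type I receptor kinase for TGF-beta, read 8.29, 8.71 and 8.61 in DMD KO and 7.90, 7.49 and 7.22 in WT at 3 months. The lowest DMD KO array lay above the highest WT array. TGFBR1 rose by 1.0 ± 0.25 (2.00-fold; adjusted p = 0.032), and the call was lost without DMD KO replicate 2 (0.111), DMD KO replicate 3 (0.119), WT replicate 2 (0.103) or WT replicate 3 (0.144). At 2 days it read 7.94, 8.24, 7.83 and 8.39 in DMD KO and 7.93, 7.90 and 7.03 in WT. Those groups overlapped, with a difference of 0.48 (adjusted p = 0.196), or 0.19 (0.704) without WT replicate 3. The genotype differences at the 2 ages differed by 0.52 (adjusted p = 0.558).

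TGFBR3, betaglycan, a coreceptor that presents TGF-beta to its receptors, read 7.55, 7.44 and 7.54 in DMD KO and 7.21, 6.80 and 6.67 in WT at 3 months. It rose by 0.61 ± 0.13 (1.53-fold; adjusted p = 0.0137), with no overlap. The call was lost without DMD KO replicate 3 (0.0554), WT replicate 2 (0.0616) or WT replicate 3 (0.0676), and in a fit of these 6 arrays alone (0.0705). The replicate number as a block also ended it (0.054). WT piglets at 2 days read 7.46, 7.62 and 7.49, so the WT level fell with age by 0.63 ± 0.13 (1.55-fold lower; adjusted p = 0.0224). All 3 older WT arrays were below all 3 younger ones. In that comparison 2 family genes were higher and 4 lower without overlap, where 13.3% of all probe sets did not overlap. That call was lost without WT replicate 2 at 2 days (0.0637), WT replicate 2 at 3 months (0.0747) or WT replicate 3 at 3 months (0.0891), and in a fit of the WT arrays alone (0.244). It was lost as well with the replicate number as a block (0.0811). DMD KO at 2 days read 7.54, 7.74, 7.79 and 7.81. The genotype differences at the 2 ages differed by 0.42 (adjusted p = 0.252).

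ACVR1, a type I receptor that transmits BMP and activin-related signals, read 8.41, 8.55 and 8.41 in DMD KO and 7.95, 8.09 and 7.80 in WT at 3 months. The groups did not overlap. ACVR1 rose by 0.51 ± 0.12 (1.42-fold; adjusted p = 0.0238), and the call was lost without DMD KO replicate 1 (0.0505), 2 (0.0909) or 3 (0.0625), without WT replicate 3 (0.111), in a fit of these 6 arrays alone (0.0526) and after quantile normalization (0.0523). That 3-month call was also lost with the replicate number as a block (0.0532). At 2 days ACVR1 read 7.95, 7.68, 7.81 and 7.81 in DMD KO and 7.89, 7.78 and 7.50 in WT, a difference of 0.09 (adjusted p = 0.623), or -0.02 (0.945) without WT replicate 3. From 2 days to 3 months ACVR1 rose in DMD KO by 0.64 ± 0.11 (1.56-fold; adjusted p = 0.00292), the call of the family that held in each alternative tried. The WT difference with age was 0.22 (adjusted p = 0.501), and the genotype differences at the 2 ages differed by 0.42 (0.203).

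ACVR1C, a type I receptor also known as ALK7, read 5.53, 5.82, 5.70 and 5.34 in DMD KO and 5.84, 7.86 and 6.83 in WT at 2 days. The WT arrays were far apart, and the lowest of them lay just above the highest DMD KO array. ACVR1C fell by 1.25 ± 0.33 (adjusted p = 0.0321, 95% interval -1.95 to -0.54). The call was lost without DMD KO replicate 1 (0.0635), 2 (0.054), 3 (0.0639) or 4 (0.0889) or WT replicate 3 (-1.25, 0.0827), with array weights (-0.52, 0.19), with the leading axis of spread within groups as a covariate (0.0559) and in a fit of these 7 arrays alone (0.109). The replicate number as a block ended it too (0.0808). No fold is given, since the DMD KO mean lay below the 25th percentile of the arrays. At 3 months the levels were 5.44 to 5.62 in DMD KO and 5.50 to 5.62 in WT.

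The remaining 7 receptors were not called in any comparison in the fit of all arrays. TGFBR2, the type II receptor for TGF-beta, read 7.38, 7.49 and 7.31 in DMD KO and 7.13, 7.30 and 6.82 in WT at 3 months, a difference of 0.31 (adjusted p = 0.178) beside 0.20 (0.256) at 2 days, or 0.26 (0.316) without WT replicate 3. With array weights, whose estimation stopped before converging, TGFBR2 was called at both ages (0.30, 0.0257, and 0.47, 0.0117). The activin type II receptors ACVR2A and ACVR2B, which also bind myostatin, differed by 0.20 (adjusted p = 0.656) and -0.06 (0.78) at 2 days and by 0.08 (0.893) and -0.22 (0.369) at 3 months. Without WT replicate 3 the 2-day differences were -0.27 (0.31) for ACVR2A and -0.09 (0.793) for ACVR2B. For ACVR2A that array read 8.68 where the other arrays lay between 9.49 and 10.23. The BMP receptors BMPR1A and BMPR2 differed by 0.09 (adjusted p = 0.766) and -0.18 (0.416) at 2 days and by -0.04 (0.921) and 0.00 (0.989) at 3 months. Without WT replicate 3 the 2-day differences were -0.21 (0.341) and -0.33 (0.246). BMPR2 was called at 2 days with quantile normalization (-0.43, 0.0236) and with array weights (-0.29, 0.0309). Groups of 5 of the 11 receptors did not overlap at 3 months, each with DMD KO higher. Among them BMPR1B, named after its values were seen, differed by 0.39 (adjusted p = 0.352). Its other, dimmer probe set differed by -0.08 (0.624), and there the groups overlapped. Over the whole family 8 genes were higher and 3 lower without overlap at that age, where 23% of all probe sets had groups that did not overlap. At 2 days the counts were 1 higher and 5 lower, where 24.6% of all probe sets did not overlap. The median difference of the receptors at 3 months was 0.08.

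**Figure D2:**
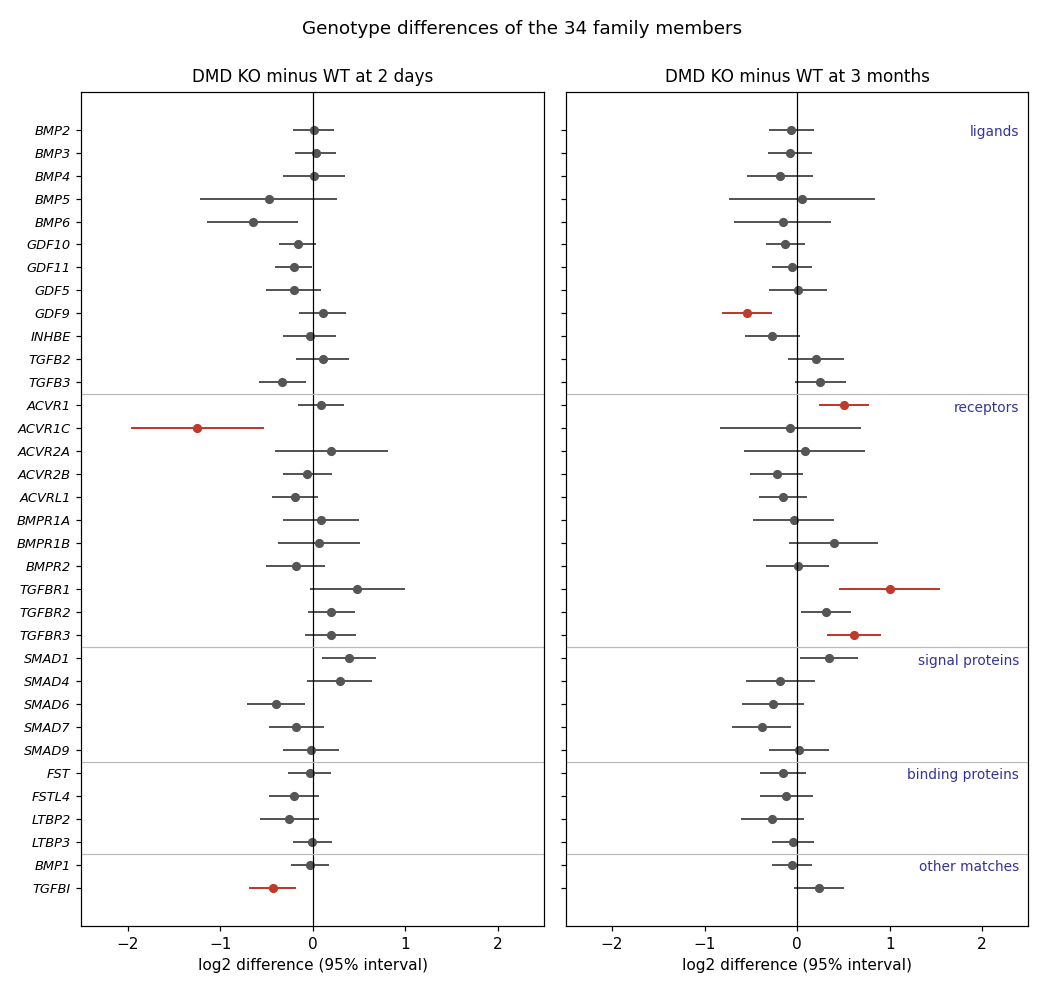
Difference of DMD KO and WT (log2) with its 95% interval for each of the 34 family genes, grouped by role, at 2 days and at 3 months. Red marks the called genes: ACVR1C and TGFBI, lower at 2 days, and TGFBR1, TGFBR3, ACVR1 (higher) and GDF9 (lower) at 3 months.

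None of the 5 SMADs was called by limma in any comparison in the fit of all arrays, although 2 had an unadjusted p under 0.05 at each age between genotypes. SMAD1, a BMP receptor SMAD named here after its values were seen, read 7.98, 8.17, 8.18 and 8.30 in DMD KO and 7.96, 7.86 and 7.47 in WT at 2 days. It was higher in every DMD KO array, by 0.39 (adjusted p = 0.078), and by 0.34 (0.203) at 3 months. Without WT replicate 3 the 2-day difference was 0.25 (0.321). The inhibitory SMAD6 read 7.76, 7.61, 7.47 and 7.64 in DMD KO and 7.81, 7.95 and 8.30 in WT at 2 days. It was lower in every DMD KO array, with a difference of -0.40 (adjusted p = 0.0944), and of -0.26 (0.37) at 3 months, where the groups overlapped. Without WT replicate 3, the highest WT array, the 2-day difference was -0.26 (0.377). SMAD7, the inhibitor of TGF-beta signalling, read 6.61, 6.51 and 6.23 in DMD KO and 6.55, 7.10 and 6.86 in WT at 3 months, a difference of -0.39 (adjusted p = 0.15). It was called without WT replicate 1 at 3 months (-0.53, 0.0362) and with array weights (-0.36, 0.033). SMAD4, the common partner, differed by 0.29 (adjusted p = 0.242) at 2 days, or 0.10 (0.776) without WT replicate 3, and by -0.18 (0.565) at 3 months. It was called at 3 months with the leading axis of spread within groups as a covariate (-0.39, 0.0289).

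No binding protein was called by limma in any comparison, and none had an unadjusted p under 0.05 between genotypes (0 of 4 at each age). Follistatin (FST) read 7.74, 7.85, 7.63 and 7.89 in DMD KO and 7.88, 7.83 and 7.73 in WT at 2 days, and 7.43, 7.58 and 7.38 against 7.53, 7.50 and 7.82 at 3 months. The groups overlapped at both ages, with differences of -0.03 (adjusted p = 0.868; -0.07, 0.817, without WT replicate 3) and -0.15 (0.484). With age in DMD KO it differed by -0.31 (0.0917). All 4 binding proteins had differences below 0 at both ages, the furthest of them -0.27 for LTBP2 at 3 months. The one nearest to 0 was -0.003 at 2 days. Of the 34 family genes, 20 were below 0 at each age. The median over all probe sets was -0.02 at 2 days and -0.05 at 3 months. The 4 were grouped by symbol alone, and what each of them binds was not examined. LTBP2, named after its values were seen, was the one whose 2-day groups did not overlap.

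TGFBI, a matrix protein named for its induction by TGF-beta, read 7.02, 7.01, 7.17 and 6.87 in DMD KO and 7.46, 7.24 and 7.64 in WT at 2 days. All 4 DMD KO arrays lay below all 3 WT arrays. TGFBI fell by 0.43 ± 0.11 (1.35-fold lower; adjusted p = 0.0311), and by 0.34 (0.126) without WT replicate 3. The call was also lost without DMD KO replicate 1 (0.0589), 2 (0.0676) or 4 (0.0918) or WT replicate 1 (0.0709), with the leading axis of spread within groups as a covariate (0.1) and in a fit of these 7 arrays alone (0.0761). With the replicate number as a block it was lost as well (0.161). At 3 months it read 7.27, 7.36 and 7.28 in DMD KO and 7.08, 7.22 and 6.90 in WT, a difference of 0.23 (adjusted p = 0.322) that was called with array weights (0.32, 0.0487). The genotype difference moved from below 0 to above 0, by 0.66 ± 0.16 (adjusted p = 0.0354). That call was kept without DMD KO replicate 3 at 2 days, WT replicate 2 at 2 days or WT replicate 2 at 3 months and lost without any 1 of the other 10 arrays (0.0569 to 0.0932). It was also lost with the replicate number as a block (0.147).

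Most uncalled differences were small. At 2 days the 32 uncalled genes had differences from -0.65 to 0.48, with 24 of them within 0.25 of 0, and at 3 months the 30 uncalled had -0.39 to 0.39, with 22 within 0.25. A p that misses the threshold does not show that the groups had equal levels. The means of ACVR1C, BMP4, BMP6 and SMAD9 lay below the 25th percentile of every array. On the Sscrofa11.1 gene order ACVR1 and ACVR1C are direct neighbours, with 0 genes between them.

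Other genes of the pathway were called in larger shares than the family, a contrast between lists that was not tested. From 77 genes of known roles in the pathway, listed with earlier results of these data known, 50 were measured. At 2 days 17 of the 50 were called, 13 lower and 4 higher (34%, against 9.93% of all probe sets), with a median difference of -0.16. At 3 months 16 were called, all higher (32% against 5.98%), with a median of 0.11. The genotype difference at 3 months differed from that at 2 days for 17 genes, 15 of them upward (34% against 5.05%). With age 18 were called in DMD KO (16 higher, 2 lower; 36% against 8.04% of all probe sets) and 9 in WT (1 higher, 8 lower; 18% against 2.89%). In a limma fit of the WT arrays alone 0 of the 50 were called with age (16 at an unadjusted p under 0.05), and 0.183% of all probe sets were.

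Genes that respond to TGF-beta and activin, 12 measured, included 5 lower and 1 higher at 2 days and 5 higher at 3 months. All 5 that fell encode matrix proteins: FN1, COL1A1, COL1A2, COL3A1 and POSTN. CYR61, CTGF, PMEPA1, ACTA2, TAGLN and KLF10 were not called by limma between genotypes at either age. Of the 12, 8 had an unadjusted p under 0.05 at 2 days and 6 at 3 months. POSTN, periostin, a matrix protein of fibroblasts, read 8.80, 10.35, 9.95 and 9.52 in DMD KO and 11.86, 11.76 and 12.14 in WT at 2 days. It read 11.95, 11.69 and 11.82 in DMD KO and 9.74, 8.31 and 9.85 in WT at 3 months. The order of the genotypes turned, with no overlap at either age. POSTN fell by 2.27 ± 0.37 at 2 days (adjusted p = 0.00332) and rose by 2.52 at 3 months (0.00244), and the 2 differences differed by 4.79 (0.000382). COL3A1, a fibrillar collagen, behaved alike in direction, with -1.32 ± 0.10 (3.99e-05) at 2 days and 1.07 (0.000102) at 3 months. FN1, fibronectin, read 8.79, 8.77, 8.72 and 8.73 in DMD KO and 9.61, 9.75 and 9.38 in WT at 2 days, and 10.84, 10.78 and 11.05 against 9.23, 8.75 and 8.81 at 3 months. It was lower at 2 days and higher at 3 months, by -0.83 (0.00219) and 1.96 ± 0.13 (7.75e-06). COL1A1 and COL1A2, chains of collagen I, fell by 2.06 (0.000179) and by 1.52 (3.86e-05) at 2 days, and COL1A2 rose by 0.74 (0.00303) at 3 months. CDKN1A, a cell cycle inhibitor, was the 1 riser at 2 days, by 0.44 (0.0308), and was also higher at 3 months, by 0.61 (0.01).

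Of the BMP response genes, 6 measured, none was called by limma at 2 days, where 2 had an unadjusted p under 0.05. At 3 months 1 was called, and 2 had an unadjusted p under 0.05. The median difference of the 6 was -0.22 at 2 days and -0.15 at 3 months, below 0, whereas the called gene, ID2, rose. ID1, ID4, HEY1, MSX1 and ATOH8 were not called between genotypes at either age. ID2, an inhibitor of differentiation induced by BMP signals, read 8.58, 8.46 and 7.90 in DMD KO and 7.51, 6.48 and 6.99 in WT at 3 months. ID2 rose by 1.32 ± 0.27 (adjusted p = 0.0117), with no overlap, and the call was lost without WT replicate 2 (0.0526). The 2-day difference was 0.17 (0.688), and the difference between ages was not called (1.15, 0.11).

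Extracellular modulators, 19 measured, included 7 lower and 1 higher at 2 days and 10 higher at 3 months. ASPN, asporin, a small proteoglycan that binds TGF-beta, read 8.76, 9.04, 8.59 and 8.69 in DMD KO and 10.99, 11.03 and 10.44 in WT at 2 days, and 11.40, 11.20 and 11.21 against 9.78, 8.18 and 9.60 at 3 months. It fell by 2.05 ± 0.30 at 2 days (adjusted p = 0.00187) and rose by 2.09 at 3 months (0.00214). FMOD, SPARC and DCN, further matrix proteins, fell at 2 days by 1.84 (0.00456), by 1.01 (0.000192) and by 0.95 (0.000988). At 3 months SPARC and DCN were called higher, by 0.81 (0.000542) and 0.58 (0.0221), and FMOD was not called. HTRA1, a protease that cleaves matrix proteins, read 7.96, 7.95, 8.01 and 7.97 against 8.91, 8.86 and 8.75 at 2 days and 9.71, 9.72 and 10.26 against 8.96, 8.66 and 8.60 at 3 months. Its 3-month rise was 1.15 ± 0.14 (0.000416). THBS1, thrombospondin 1, an activator of latent TGF-beta, had its higher values in DMD KO at either age. It read 8.93, 9.14, 9.26 and 9.10 against 8.66, 8.07 and 8.27 at 2 days and 9.88, 10.71 and 10.25 against 8.36, 7.90 and 8.27 at 3 months, and rose by 0.77 (0.0267) and 2.10 ± 0.21 (8.67e-05). ITGAV, an integrin chain that activates latent TGF-beta, rose by 1.02 (0.0299) at 3 months.

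Coreceptors and intracellular regulators, 13 measured, included 2 higher and 1 lower at 2 days and none by limma at 3 months, where 4 had an unadjusted p under 0.05. ZFYVE9, also called SARA, which brings receptor SMADs to the receptor, read 8.58, 8.04, 8.62 and 9.01 in DMD KO and 7.51, 7.66 and 6.88 in WT at 2 days. It rose by 1.21 ± 0.22 (adjusted p = 0.00544) with no overlap, and differed by 0.03 (0.95) at 3 months. The difference between ages missed the threshold (-1.18, 0.0532). RGMB, a BMP coreceptor, rose by 0.54 (0.0221) and FKBP1A, which binds the type I receptors, fell by 0.41 (0.0211) at 2 days.

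**Figure D3:**
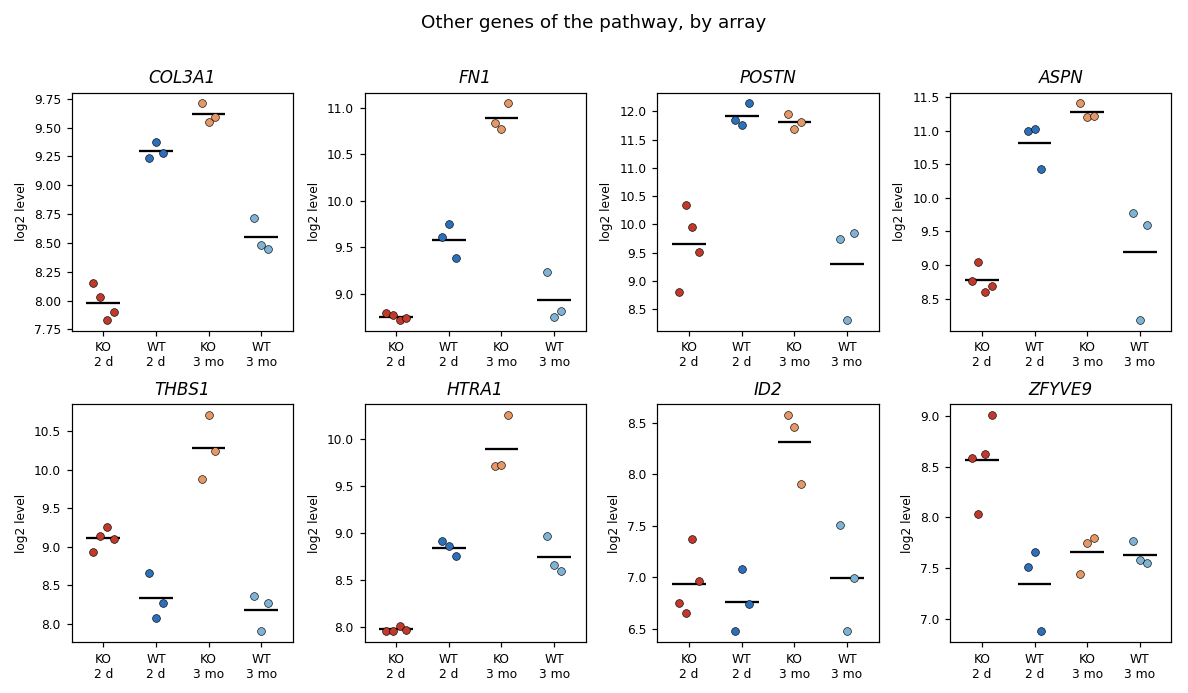
Levels (log2) of 8 pathway genes outside the family, with a point for each array and a line at each group mean, in the 4 groups. COL3A1, FN1, POSTN, ASPN and HTRA1 are lower in DMD KO at 2 days and higher at 3 months, THBS1 is higher at both ages, ID2 at 3 months and ZFYVE9 at 2 days.

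Without WT replicate 3 at 2 days 13 of the 17 genes called at 2 days were called, and CDKN1A (0.0997), THBS1 (0.74, 0.0811), RGMB (0.37, 0.0656) and FKBP1A (-0.36, 0.0756) were not. The 4 also lost their call without DMD KO replicate 2 or 4 at 2 days, CDKN1A and THBS1 without DMD KO replicate 3 or WT replicate 2, and RGMB without DMD KO replicate 1. With the leading axis as covariate all 4 lost their call, as did CDKN1A, RGMB and FKBP1A in a fit of the 7 arrays alone, CDKN1A and FKBP1A with trend and robust eBayes, and CDKN1A and THBS1 after quantile normalization. All 4 also lost it with the replicate number as a block. Over all settings other than left-out arrays the adjusted p reached 0.167 for CDKN1A, 0.119 for THBS1, 0.0956 for RGMB and 0.0753 for FKBP1A. With the replicate number as a block FBN1 lost its 2-day call (0.0656), and DCN, FBN1 and ITGAV lost their 3-month calls. At 3 months 11 of the 16 were called with any 1 array left out. CDKN1A lost its call without DMD KO or WT replicate 3 (0.0516 to 0.0533), FBN1 without DMD KO replicate 1 or WT replicate 2 or 3 (0.0606 to 0.0721) and in a fit of the 6 arrays alone, and DCN (0.054 to 0.0981) and ITGAV (0.0667 to 0.129) without any DMD KO replicate or WT replicate 2 or 3.

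**Figure D4:**
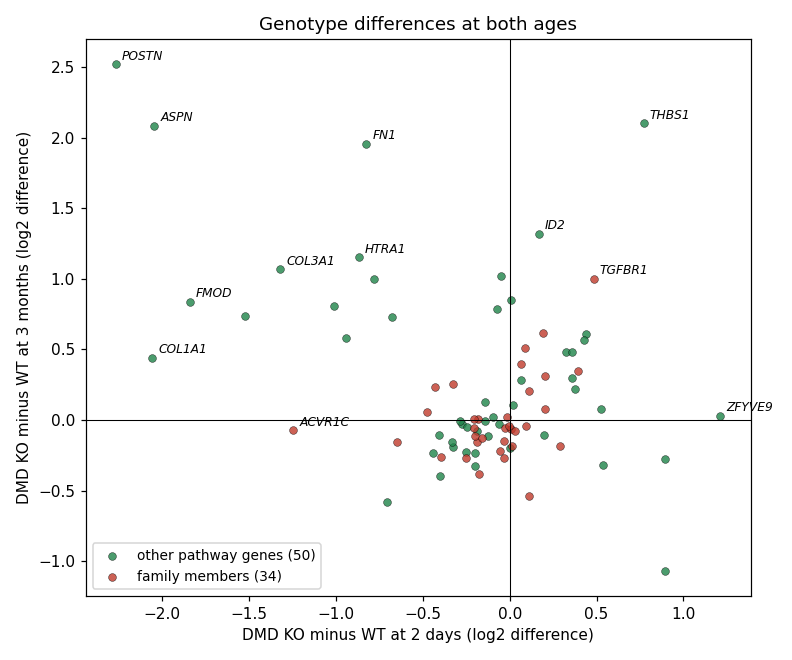
Genotype difference at 2 days (horizontal, log2) against that at 3 months (vertical, log2), with a point for each of the 34 family genes and each of the 50 other pathway genes measured. The family gene furthest from 0 is ACVR1C at 2 days (-1.25) and TGFBR1 at 3 months (1.0), while POSTN and ASPN lie below -2 at 2 days and above 2 at 3 months.

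Levels of some cell type markers differed between the same groups. In whole muscle RNA, fewer cells of a type and less RNA per cell cannot be told apart. Of 6 fibroblast markers measured, 5 were lower in DMD KO at 2 days and 3 higher at 3 months, and 3 of them (DCN, COL1A1 and COL3A1) are also pathway genes above. Their mean level ran from 9.11 to 9.42 in DMD KO and from 10.33 to 10.49 in WT at 2 days, and from 10.43 to 10.55 and from 9.71 to 10.08 at 3 months. Of 4 macrophage markers, limma called 0 at 2 days (1 at an unadjusted p under 0.05) and 3 were higher at 3 months. Their mean level ran from 7.14 to 7.25 in DMD KO and from 6.84 to 7.07 in WT at 2 days, and from 8.04 to 8.74 and from 6.58 to 7.03 at 3 months. Of 3 tendon markers, 2 were lower at 2 days (mean level 5.98 to 6.66 in DMD KO, 7.54 to 9.89 in WT), among the 3 FMOD, which is also a pathway gene above, and limma called 0 at 3 months (2 at an unadjusted p under 0.05). Of 4 fibre markers, 1 was lower at each age. Mean fibre marker levels were from 11.47 to 11.79 in DMD KO and from 11.75 to 12.16 in WT at 2 days, and from 11.80 to 12.10 and from 12.26 to 12.41 at 3 months. Of 4 endothelial markers 1 was higher at 2 days, and of 4 smooth muscle markers, which include the pathway gene ACTA2, 1 was lower at 3 months. Adipocyte (3 measured), red blood cell (2) and T and NK cell (5) markers had no limma call between genotypes, with an unadjusted p under 0.05 for 1 adipocyte marker at 2 days and 1 T and NK cell marker at 3 months. The part of these cell types in the differences of the family and pathway genes was not tested.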

How the data were processed

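RNA was labelled and hybridised to whole-transcript arrays. The deposited log2 values, made by the authors, were used as they are. Per the submitters' processing notes the tool was Affymetrix Power Tools. Its version, how probes were summarised and how arrays were normalized: not given in the sources used here. Values run from 2.81 to 13.8. Of 21893 probe sets, 11028 carried 1 symbol, 418 several and 10447 none, and 485 repeat the values of another. Names came from the platform annotation, with 5 symbols updated.

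All 13 arrays were fitted together with limma 3.58.1 in R 4.3.3 (lmFit, eBayes; 4 group means, 9 residual degrees of freedom; two-sided). SE is limma's moderated standard error. The script was tested on simulated data. Alternatives were a fit of the compared groups alone, trend and robust eBayes, quantile normalization, median centring, probe sets above the median level, averaged probe sets, the leading within-group axis as a covariate, array weights, the replicate number as a block, and leaving out each array. For pathway genes in the age comparisons and the interaction they were added after seeing the data.

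Family genes called in any comparison are named, with TGFB1, TGFB2, TGFB3, TGFBR1, TGFBR2, ACVR2A, ACVR2B, BMPR1A, BMPR2, SMAD2, SMAD3, SMAD4, SMAD6, SMAD7, FST and INHBA whatever their values, and for each pathway list and genotype comparison up to 4 called genes in each direction. FBN1, BMP5, BMP6, BMPR1B, SMAD1, LTBP2, BMP4 and SMAD9 were named after their values were seen. The members and all gene lists were chosen with earlier results of these data known. No sequence or coordinate is printed.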

Additional observations from a re-analysis of the deposited data

Results flagged for a closer look

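Among the 4 DMD KO piglets at 2 days, replicate 2 read 7.863 for GDF9, while the other 3 lay close together (7.73 to 7.75). Replicate 4 read 6.536 for SMAD7, while the other 3 read 6.652, 6.647 and 6.647. The pooled SD within groups was 0.14 for GDF9 and 0.18 for SMAD7, wider than either gap. Both flags thus rest on how close the other 3 values lay. The value 6.647 also occurred in WT replicate 2 at 2 days, and the effect of repeated values on this check was not tested. These were 2 of 34 genes tested in this group, and chance gives about 1 in 20.

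The genotype difference differed between the ages for 2 family genes. For GDF9 the 3-month difference was lower by -0.649 (limma adjusted p = 0.0404), and for TGFBI it was higher by 0.664 (0.0354).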

How the results depend on the processing

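Of 11 called results of the family, 1 (ACVR1 with age in DMD KO) was called in each alternative run; none of the 11 changed direction. Of 28 uncalled results of the genes named whatever their values or for a call, 8 gained a call in at least 1. BMP5, BMP6, BMPR1B, SMAD1, LTBP2, BMP4 and SMAD9 are not in that count. Called family genes numbered 2, 4, 1, 2 and 2 (genotype at 2 days, genotype at 3 months, age in WT, age in DMD KO, difference between ages). With only the compared groups fitted they numbered 0, 1 and 0 for genotype at 2 days, genotype at 3 months and age in WT. With probe sets above the median level they numbered 0 at 2 days, 1 for age in DMD KO and 1 for the difference between ages, where fewer genes are tested. With the leading axis as covariate they numbered 0 at 2 days and 4, 4 and 4 in the last 3. With array weights, whose estimation stopped before converging, they numbered 6, 9, 3, 4 and 6. With 1 array left out they ranged 0 to 3, 0 to 4, 0 to 2, 1 to 4 and 0 to 1. Shares of all probe sets called are not printed beside the counts from these alternatives. Such counts show how calls depend on the setting, not how the family stood against all probe sets.

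Deviations of same-numbered animals from their group means had correlations of -0.2, 0.00406 and -0.0331 at 2 days. At 3 months the correlations were -0.351, 0.309 and -0.151, where pairs with different numbers ran from -0.41 to 0.484. With so few animals this check cannot show or exclude pairing, and the labels give none. With the replicate number as a block the counts were 0, 2, 0, 1 and 0.

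Pathway genes called with age in WT numbered 9, and 0 with only the compared groups, 15 with the axis and 17 with array weights. With 1 array left out, pathway counts ranged 13 to 18, 12 to 18, 7 to 10, 16 to 20 and 15 to 18. These pathway counts too stand without the shares of all probe sets.

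Signs turned for uncalled differences. With 1 array left out, 2-day differences ran from -0.024 (without WT replicate 3) to 0.175 for ACVR1, from -0.271 (without WT replicate 3) to 0.505 for ACVR2A and from -0.207 (without WT replicate 3) to 0.256 for BMPR1A. They ran from -0.094 to 0.009 for ACVR2B, above 0 without DMD KO replicate 3 (0.005) or WT replicate 1, and from -0.072 to 0.017 for FST, above 0 without the same arrays (0.003 for the latter). At 3 months they ran from -0.148 to 0.024 for BMPR1A, above 0 without WT replicate 1 (0.004) or 3, and from -0.155 to 0.15 for BMPR2, below 0 without DMD KO replicate 2 (-0.039) or WT replicate 2. Other settings turned ACVR1 (-0.053 with array weights), ACVR2A (-0.274 with the axis, -0.133 with weights), BMPR1A (-0.113 with quantile normalization, -0.2 with the axis, -0.154 with weights) and SMAD7 (0.018 with the axis) at 2 days. At 3 months they turned ACVR2A (-0.051 with quantile normalization, -0.297 with the axis) and BMPR2 (-0.043 with quantile normalization, -0.001 with median centring, -0.16 with the axis). The cause was not tested. Quantile normalization and median centring moved the median of all probe sets by under 0.1. Groups of 3 or 4 arrays limit what could be called.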
